A study of Saccharomyces cerevisiae with 16 samples.

Results

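The genes described here encode the machinery that carries proteins into mitochondria in budding yeast. They were chosen by name, and 37 genes of the 7126 in the tables were found. The 37 genes divide into 11 of the outer membrane, 7 of the intermembrane space, 13 of the inner membrane and 6 of the matrix. The experiment compared WT cells of the BY4741 strain with *lsm1∆* cells, which lack *LSM1*, before and 1, 2 and 4 h after hydroxyurea (HU) was added to 200 mM. HU inhibits ribonucleotide reductase and so slows DNA replication. Lsm1 belongs to a ring of Lsm proteins that, with Pat1, binds the 3' end of shortened mRNAs and promotes removal of their cap in P-bodies. Both strains were grown in YPD, a rich glucose medium, and each of the 8 conditions has 2 libraries of RNA depleted of rRNA. The comparison of the strains asks which mRNAs change in abundance when Lsm1 is absent, with and without replication stress. *LSM1* itself was at 111 to 181 FPKM in the 8 WT libraries and at no more than 0.761 FPKM in the 8 *lsm1∆* libraries. *URA3*, *LEU2* and *MET17*, markers deleted in the BY4741 background, were listed at 0 in all 16 libraries, so both strains share these deletions. The *lsm1∆* cells are a single strain, and the study describes its replicates as duplicate in one place and as technical in another, so the p-values below measure only the spread between these libraries.

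Most mitochondrial proteins are encoded in the nucleus, made in the cytosol and imported. Precursors bind the receptors of the TOM complex, pass through its Tom40 channel and are then sorted. The TIM23 complex and its motor pull proteins into the matrix, the TIM22 complex inserts carrier proteins into the inner membrane, the SAM complex inserts barrel proteins into the outer membrane, and the MIA pathway folds small proteins by disulfide bonds in the intermembrane space. Peptidases then cut off the targeting signals, and chaperonins fold the imported proteins. Many of the mRNAs concerned are known to be bound by Puf3, an RNA-binding protein that recognises the letters TGTANATA (with U for T in RNA) after the stop codon and is known in yeast for its role in mRNAs of mitochondrial proteins.

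The letters TGTANATA, where N is any base, were found within the 200 bases after the stop codon of 23 of the 37 genes (62.2%), against 844 of 6008 protein-coding genes of the reference (14.0%). On the opposite strand of the same windows the letters occurred in 7 of the 37 genes and in 13.2% of all genes. The element was chosen after the values of the genes had been seen, and a match is a description of the sequence and not evidence of binding. All 7 genes of the intermembrane space carry it, as do 8 of 13 of the inner membrane, 3 of 6 of the matrix and 5 of 11 of the outer membrane. One site is shown for each of 9 genes whose abundance is described below, read 5' to 3' on the strand of the gene from the reference genome (R64, the assembly named sacCer3), with the 8 letters of the element in capitals and 10 bases on either side.
TOM6: ttcacttaccTGTATATAtattggtttt
TIM8: ttaatatatcTGTAAATAagcaaatgaa
TIM9: atttttagcaTGTAAATAtaaagagaaa
TIM10: attcatatccTGTATATAcaagtaacat
MIA40: ggatgatacaTGTAAATAcagtaatatt
PAM17: tctcagactcTGTATATAtacatatatg
TIM17: ctctcaaccaTGTACATAttatatattg
MGE1: tacgtttactTGTATATAtttgtaaact
HSP10: tgtatgtaccTGTAAATAggccattatg
The first base of the element lies, counted from 1 after the stop codon, at base 40 in *TOM6* (chrXV:414077-414084), 53 in *TIM8* (chrX:677287-677294), 58 in *TIM9* (chrV:117532-117539), 104 in *TIM10* (chrVIII:115509-115516) and 56 in *MIA40* (chrXI:77088-77095). It lies at base 35 in *PAM17* (chrXI:565257-565264), 160 in *TIM17* (chrX:147737-147744), 92 in *MGE1* (chrXV:775351-775358) and 55 in *HSP10* (chrXV:370462-370469). *TIM10*, *PAM17* and *HSP10* lie on the minus strand and the other 6 on the plus strand. In *TOM6* a second site begins at base 123, and 5 of the 37 genes have more than 1 site. The 9 genes shown are among those with the larger differences between the strains at 4 h. Others that carry the element and are described below, such as *HSP60*, *TIM18* and *TIM23*, had smaller differences and are not shown.

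Abundance was estimated by Cufflinks as fragments normalised to gene length and library size (FPKM). Of 7080 genes with no failed estimate, limma was fitted to log2(FPKM + 1) of the 6977 that reached 1 FPKM in 2 or more libraries, and all 37 import genes were among them. The fit used the 16 libraries together. A gene is termed called when its Benjamini-Hochberg adjusted p-value was under 0.05. A log2 ratio of 1 is a 2-fold difference, slightly understated in low genes by the added 1. The intervals that Cufflinks gives place the relative depth of the libraries between 0.898 and 1.10 and the fragments behind the value of an import gene between 66.1 and 17560.9. Over all genes tested, *lsm1∆* exceeded WT by a median log2 ratio of 0.13 untreated and 0.04, 0.17 and 0.37 at 1, 2 and 4 h. The results are therefore given on the deposited scale and, where it matters, after centring, which sets the median of every library to the same value. The only libraries with failed estimates, 14, 46 and 42 genes, are WT replicate 2 at 2 h and both WT replicates at 4 h, and their part in the shift at 4 h was not tested. FPKM are shares of the RNA in a library, so less RNA per cell and fewer cells of a cell-cycle stage cannot be told apart.

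In untreated WT cells the mean abundance ran from 19.4 ± 0.164 FPKM in *SAM37* to 1741 ± 236 FPKM in *TOM5* (SD, n = 2). The highest levels belonged to the small subunits of the TOM complex (*TOM5*, *TOM7* and *TOM6*), to *HSP10*, the lid of the mitochondrial chaperonin, to the carrier chaperone *TIM10*, and to the matrix chaperones *SSC1* and *HSP60*. The lowest were those of *SAM37*, *SAM50* and *IMP2*, which encode 2 subunits of the SAM complex and a subunit of the inner membrane peptidase. Levels of the shortest genes rest on an effective length, derived here from the intervals that Cufflinks gave. Per base of gene, and relative to the median of long genes, it was 0.077 in the 153-bp *TOM5* and 1.00 in the 1965-bp *SSC1*. The levels of long and short genes are therefore compared with less certainty than the levels of 1 gene between libraries.

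In *lsm1∆* cells the mRNAs of most import genes were more abundant than in WT, and more genes were called under HU. The amounts of the import proteins were not measured. Of the 37 genes, 21 were called higher in untreated cells, 25 at 1 h, 35 at 2 h and 35 at 4 h. Among all genes tested, 22.2%, 23.2%, 32% and 49.8% were called higher at these times. At 0 and 1 h, 1 and 2 import genes were called lower, against 6.32% and 13.8% of all genes, and at 2 and 4 h 0 were, in limma and also at an unadjusted p under 0.05, against 7.75% and 6.29%. The median log2 ratio of the import genes was 0.33, 0.42, 0.66 and 0.99 at 0, 1, 2 and 4 h, above that of all genes at each time. After centring, 16, 25, 27 and 28 import genes were called higher and 1, 2, 1 and 1 lower. Of all genes, 16.3%, 23.2%, 20.6% and 21.9% were then higher and 9.42%, 13.9%, 15.8% and 23.5% lower, and the medians of the import genes were 0.24, 0.42, 0.49 and 0.56. At 4 h both *lsm1∆* libraries lay above both WT libraries in 36 of the 37 genes, against 66.3% of all genes, and in *SSC1* both lay below. At every time 18 genes were called higher on the deposited scale and 15 after centring. This was not counted over all genes, of which no more than 22.2% and 16.3%, the shares untreated, can be higher at every time. In fits of only the 4 libraries compared, 9 import genes were called higher untreated and 7 at 1 h.

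**Figure D1:**
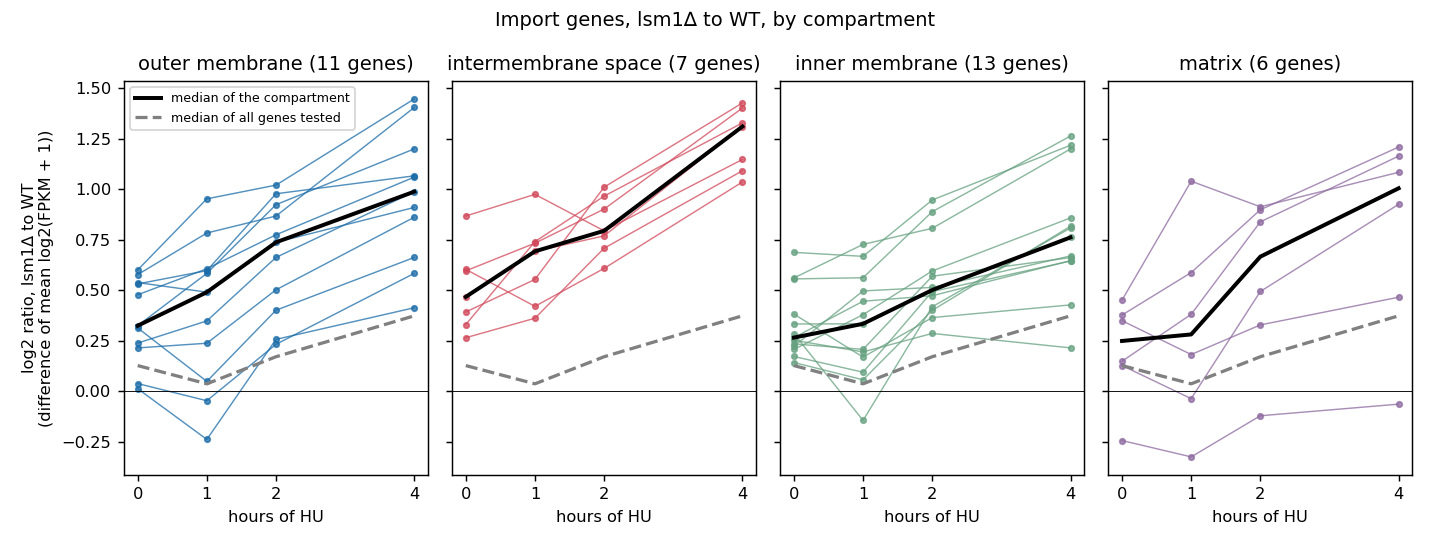
Log2 ratio of lsm1∆ to WT (vertical axis, difference of mean log2(FPKM + 1), 2 libraries a group) for each of the 37 import genes against hours of HU, in 1 panel for each compartment. The black line is the median of the compartment and the dashed line that of all 6977 genes tested on the deposited scale, which reached 0.37 at 4 h, when the 7 genes of the intermembrane space lay between 1.04 and 1.43. After centring, the ratios of SAM37 and TIM21 at 4 h are below 0, as are those of TOM71 and SAM37 before HU.

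The outer membrane held 11 genes, all of them called higher in *lsm1∆* at 4 h with a median log2 ratio of 0.99. After centring 9 of them were. Of all genes, 49.8% were called higher at that time and 21.9% after centring. The difference was largest for *TOM6*, a small subunit that stabilises the complex. *TOM6* was at 723 and 734 FPKM in untreated WT and at 406 and 487 after 4 h of HU, and at 1164 and 1049 and 1105 and 1335 in *lsm1∆*. The WT libraries fell with HU below every untreated WT library, while the *lsm1∆* values overlapped between the times. The log2 ratio of *lsm1∆* to WT was 0.60 ± 0.11 (SE) untreated and 1.45 ± 0.11 at 4 h (limma, Benjamini-Hochberg adjusted p = 2.86e-06). *TOM5*, another small subunit near the channel, was at 1283 and 1226 FPKM in WT and 3239 and 3409 in *lsm1∆* at 4 h, with no overlap and a log2 ratio of 1.40 ± 0.09. *TOM7*, which acts on the assembly of the complex, had a ratio of 1.20 ± 0.10. *TOM40*, which forms the channel, was at 178 and 176 FPKM in untreated WT and 250.4 and 265 in untreated *lsm1∆*, and at 118 and 120.3 and 219.6 and 230.1 at 4 h. Both *lsm1∆* libraries were higher than both WT libraries at either time, with log2 ratios of 0.54 ± 0.06 and 0.91 ± 0.06, and both were called.

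The receptors differed among themselves. *TOM20*, which recognises cleavable presequences, and *TOM22*, the central receptor, were at 86.0 and 87.3 and at 195 and 199.7 FPKM in WT at 4 h, and at 178 and 187 and at 416 and 409.6 in *lsm1∆*. Both were higher in *lsm1∆* without overlap, with log2 ratios of 1.07 ± 0.09 and 1.06 ± 0.07. *TOM70*, the receptor for carrier precursors, was at 142 and 139 FPKM in untreated WT and 82.7 and 84.3 at 4 h, and at 163 and 169 and 164 and 169 in *lsm1∆*. The WT libraries did not overlap between the times, and the *lsm1∆* libraries did. The log2 ratio of the strains went from 0.24 ± 0.05 untreated to 0.99 ± 0.05 at 4 h (limma, Benjamini-Hochberg adjusted p = 7.79e-07). The untreated call was lost after centring and without WT replicate 2 (0.23) or *lsm1∆* replicate 2 (0.21). *TOM71*, its paralog, was at 44.7 and 44.6 FPKM in untreated WT and 43.1 and 48.9 in untreated *lsm1∆*, which overlapped, and at 39.9 and 42.0 and 59.9 and 63.9 at 4 h, which did not. Its log2 ratio was 0.04 ± 0.07 untreated, -0.050 after centring, and 0.58 ± 0.07 at 4 h, and the latter was 0.16 and not called after centring. *SAM50*, the channel-forming subunit that inserts barrel proteins, was at 28.5 and 26.5 FPKM in WT and 49.2 and 52.3 in *lsm1∆*, a log2 ratio of 0.86 ± 0.08. *SAM35*, which binds the sorting signal of barrel proteins, was called higher untreated (0.31), not called at 1 h (0.05) and called higher at 4 h (0.66 ± 0.07). Its untreated call was lost without WT replicate 2 (0.29) or *lsm1∆* replicate 2 (0.30). *SAM37*, a peripheral subunit, was at 25.5 and 24.3 FPKM in WT and 21.7 and 20.2 in *lsm1∆* at 1 h, and at 17.3 and 16.4 and 22.2 and 23.5 at 4 h. *lsm1∆* was lower at 1 h and higher at 4 h, without overlap at either time. *SAM37* was called lower at 1 h (-0.24) and higher at 4 h (0.41 ± 0.07), the first call was lost without WT replicate 1 (-0.20) or *lsm1∆* replicate 2 (-0.19) at that time, and after centring the ratio at 4 h was -0.011.

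**Figure D2:**
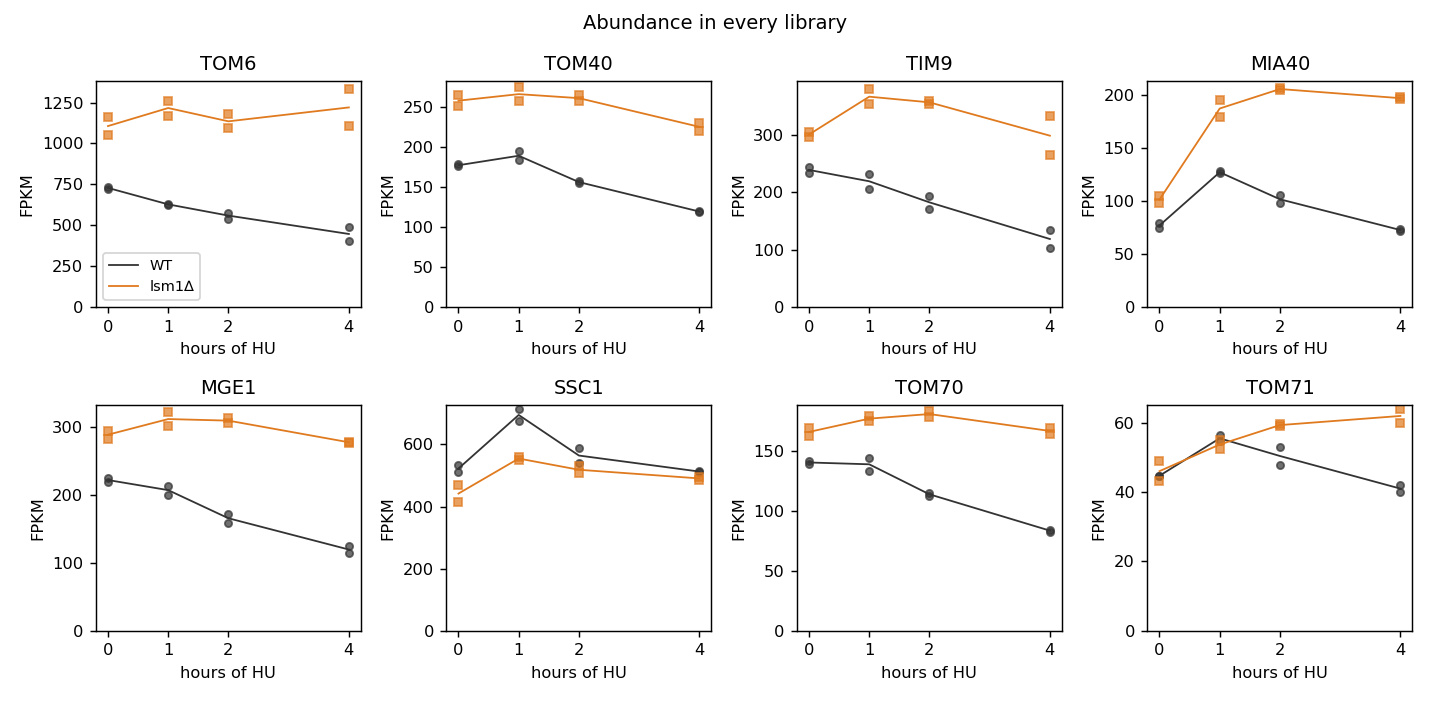
FPKM (vertical axis, starting at 0) of 8 import genes in each of the 16 libraries against hours of HU. Black circles are WT and orange squares lsm1∆ libraries, and lines join the means of the 2 replicates. The WT means of all 8 genes are lowest at 4 h, and those of TOM40, MIA40, SSC1 and TOM71 are highest at 1 h. SSC1 is the only gene shown in which the WT line lies above that of lsm1∆ at every time. In TOM71 it does so at 1 h (means of 55.5 and 53.7 FPKM).

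The 7 genes of the intermembrane space had a median log2 ratio of 1.31 at 4 h, the highest among the compartments. All 7 were called higher on both scales, against 49.8% of all genes and 21.9% after centring. The small Tim proteins chaperone membrane proteins across this space in pairs, *TIM9* with *TIM10* and *TIM8* with *TIM13*, while *TIM12* docks them on the TIM22 complex. *TIM10* was at 604 and 592 FPKM in untreated WT and 422 and 364 at 4 h, and at 855 and 801 and 903 and 1049 in *lsm1∆*. *TIM9* was at 244 and 233 and 103 and 134 in WT, and at 296 and 304 and 264 and 332 in *lsm1∆*. Both genes fell in WT without overlap between the times, and *lsm1∆* did not fall below its untreated range in *TIM10*. The log2 ratios of the strains at 4 h were 1.31 ± 0.10 for *TIM10* and 1.33 ± 0.14 for *TIM9*. *TIM8* was at 167 and 182 FPKM in WT and 455 and 469 in *lsm1∆* at 4 h, a ratio of 1.40 ± 0.11. *TIM13* was at 186 and 180.1 and 379 and 402, a ratio of 1.09 ± 0.11. *TIM12*, the least abundant and the most scattered of the 5, was at 60.7 and 58.5 in WT and 113 and 157 in *lsm1∆*, a ratio of 1.15 ± 0.21. None of these pairs of groups overlapped. *MIA40*, the receptor and oxidase of the MIA pathway, was at 79.4 and 74.2 FPKM in untreated WT, 128 and 126 at 1 h and 73.3 and 71.7 at 4 h. In *lsm1∆* it was at 104 and 97.9, 195 and 179 and 197 and 196. At 4 h WT was back at or just below its untreated values after a peak at 1 h, and *lsm1∆* was not. The log2 ratio of the strains was 0.39 ± 0.06 untreated and 1.43 ± 0.06 at 4 h (limma, Benjamini-Hochberg adjusted p = 4.12e-07). *ERV1*, the sulfhydryl oxidase that recharges Mia40 and the only import gene here with an intron, was at 66.9 and 60.7 FPKM in WT and 131 and 132 in *lsm1∆* at 4 h, a ratio of 1.04 ± 0.11. The libraries are not stranded, so reads of *TIM9* and *TIM13* cannot be told apart from those of YEL020C-B and YGR182C on the other strand, which overlap them by 170 and 54 bp and were at 34.7 to 139 and 95.3 to 259 FPKM.

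The 13 genes of the inner membrane had a median ratio of 0.76 at 4 h. Of these, 12 were called higher and 8 after centring, against 49.8% and 21.9% of all genes. *IMP2*, the exception, encodes a subunit of the peptidase that trims proteins on the outer face of this membrane, and was at 16.3 and 18.7 FPKM in WT and 21.4 and 26.5 in *lsm1∆*, a ratio of 0.43 ± 0.23 (limma, Benjamini-Hochberg adjusted p = 0.141). The core subunits of TIM23 differed. *TIM17*, which lines the translocation path, was at 103 and 94.9 FPKM in WT and 239 and 217 in *lsm1∆* at 4 h, a ratio of 1.20 ± 0.09. *TIM23*, its partner, was at 77.8 and 90.5 and 132 and 135, a ratio of 0.66 ± 0.12 that was 0.24 and not called after centring. *TIM21*, which links the complex to TOM, was at 56.0 and 56.1 FPKM in WT and 62.5 and 68.0 in *lsm1∆*, without overlap. Its ratio was the lowest of those called, 0.21 ± 0.07, and was -0.21 after centring. *TIM50*, the receptor that meets the precursor as it leaves TOM, was at 65.1 and 66.4 FPKM in WT and 105 and 102 in *lsm1∆*, a ratio of 0.64 ± 0.07. The call of *TIM21* was lost without either WT library (0.21 and 0.22) or *lsm1∆* replicate 2 (0.15) at 4 h. The 4 genes of the motor at the membrane were all called higher at 4 h on both scales, from 0.82 in *TIM44*, the anchor of the motor, to 1.26 in *PAM16*, a J-like regulator. *PAM17*, an accessory subunit of the motor, was at 91.9 and 99.8 FPKM in untreated WT and 156 and 153 in untreated *lsm1∆*, and at 96.8 and 90.9 and 207 and 233 at 4 h. *lsm1∆* lay above WT without overlap at both times, with ratios of 0.69 ± 0.08 and 1.22 ± 0.08. In the carrier branch *TIM22*, the channel-forming subunit, was at 31.6 and 35.7 FPKM in untreated WT and 39.1 and 43.2 in untreated *lsm1∆*, and at 31.4 and 26.9 and 54.8 and 48.7 at 4 h. The groups did not overlap at either time, and the ratio was 0.29 ± 0.12 untreated, not called, and 0.81 ± 0.12 at 4 h. *TIM54*, which supports assembly of the complex, and *TIM18*, another subunit, had ratios of 0.76 ± 0.06 and 0.65 ± 0.10, and that of *TIM18* was 0.22 and not called after centring.

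The matrix held the only import gene that was lower in *lsm1∆* without overlap at every time. *SSC1*, the Hsp70 that drives import, was at 513 and 532 FPKM in WT and 416 and 468 in *lsm1∆* before HU, and at 512 and 513 and 486 and 495 at 4 h. Its log2 ratio was -0.24 ± 0.07 untreated (limma, Benjamini-Hochberg adjusted p = 0.0247), -0.32 at 1 h, which was called, and -0.06 ± 0.07 at 4 h, which was not. After centring it was called lower at every time and was -0.49 at 4 h. The untreated call was lost without WT replicate 1 (-0.27), WT replicate 2 (-0.22) or *lsm1∆* replicate 1 (-0.16), and both calls in fits of only the 4 libraries compared. Reads of *SSC1* may be shared with its close paralog *ECM10*, which was at 4.93 to 8.70 FPKM in the 16 libraries. Such sharing was not tested. *MGE1*, the nucleotide exchange factor of Ssc1, went the other way. It was at 219.8 and 225 FPKM in WT and 295 and 283 in *lsm1∆* before HU, and at 115 and 125 and 277 and 279 at 4 h. *lsm1∆* was higher at both times, with ratios of 0.38 ± 0.07 and 1.21 ± 0.07. The chaperonin pair also differed. *HSP10* was at 695 and 780.3 FPKM in WT and 1502 and 1625 in *lsm1∆* at 4 h, a ratio of 1.08 ± 0.12, and *HSP60* was at 439 and 429.7 and 590.5 and 610.2, a ratio of 0.47 ± 0.09 that was 0.04 and not called after centring. *MAS1* and *MAS2*, the subunits of the processing peptidase that removes presequences, were not called in untreated cells (0.15 and 0.13) and had ratios of 1.16 ± 0.09 and 0.93 ± 0.08 at 4 h. Reads of *MAS1* cannot be told apart from those of YLR163W-A, which overlaps it by 114 bp on the other strand and was at 455 to 1680 FPKM. Of the 33 import genes that overlap no other gene, 31 were called higher at 4 h, against 49.8% of all genes.

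After HU was added the import genes changed differently in each strain. No untreated cells were sampled at 1, 2 or 4 h, so HU and hours of growth cannot be told apart in any comparison with untreated cells. In WT, 22 of the 37 were called lower after 4 h than before HU and 0 higher by limma, against 26% and 22% of all genes, and after centring 21 and 0, against 24.7% and 23.9%. At an unadjusted p under 0.05, 23 were lower and 0 higher. The 2 with the largest positive ratio, *ERV1* and *SAM50*, were not called. The median change was -0.38, against -0.03 over all genes. The WT mean was lowest at 4 h in 33 of the 37, a count not made over all genes. The largest falls were those of *TIM9* (-1.02 ± 0.14) and *MGE1* (-0.89 ± 0.07), followed by *PAM18* (-0.86) and *TOM20* (-0.78), with adjusted p-values from 3.42e-06 to 1.83e-04 (limma, Benjamini-Hochberg). All 4 of the TIM23 complex and 8 of 11 of the outer membrane were called lower. *ERV1*, *SAM50* and *HSP60* had changes of 0.17 ± 0.11, 0.11 ± 0.08 and 0.06 ± 0.09. The calls of *SAM37*, *HSP10* and *TIM18* were lost in at least 1 fit without 1 library. In *lsm1∆*, 15 genes were called higher at 4 h and 3 lower, against 43.6% and 14.7% of all genes, and the median change was 0.20, below the 0.27 of all genes. Centring turned this into 5 higher and 11 lower, against 23.1% and 27.5%. The genes called higher on both scales were *MAS1* (0.97 ± 0.09), *MIA40* (0.95 ± 0.06), *SAM50* (0.75), *ERV1* (0.60) and *TIM13* (0.59). Of these, *MAS1* and *TIM13* overlap a gene on the other strand. *TIM21*, *TOM20* and *TOM40* were called lower (-0.38, -0.24 and -0.19), also after centring, and only 1 of the 3 calls remained without *lsm1∆* replicate 2 before HU or *lsm1∆* replicate 1 at 4 h.

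**Figure D3:**
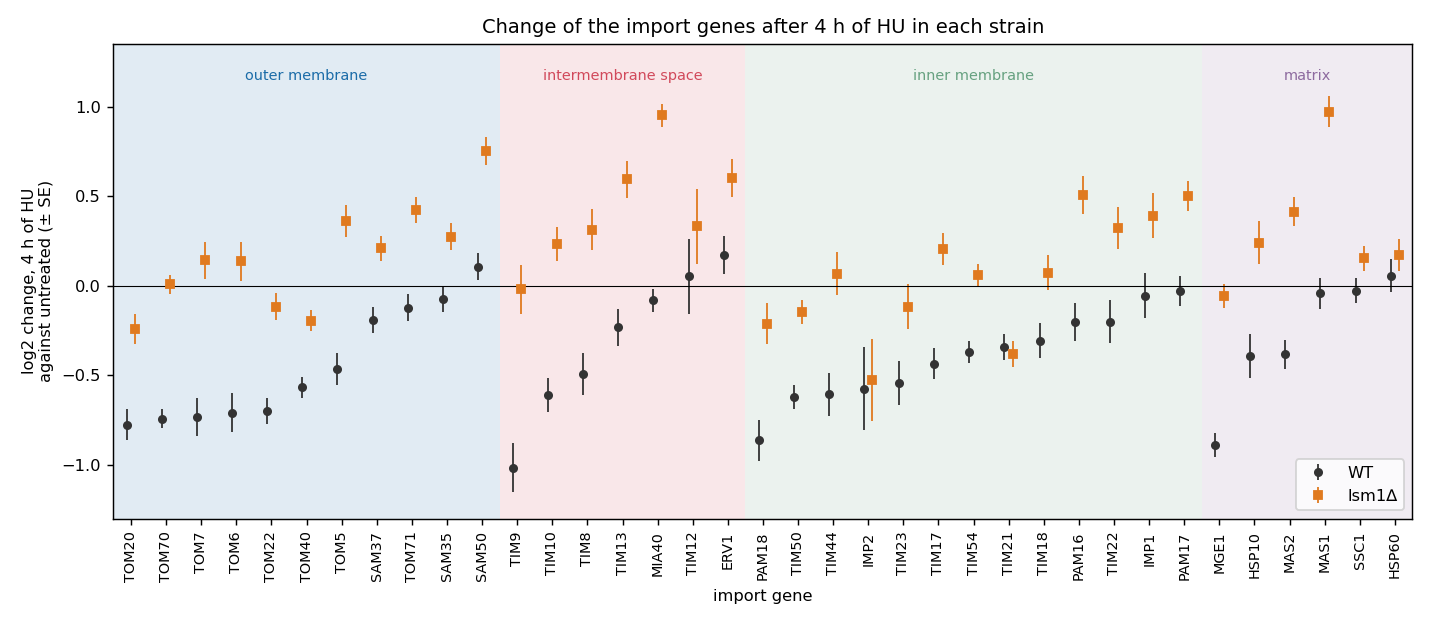
Log2 change of each import gene after 4 h of HU against untreated cells (vertical axis, with SE from the limma fit, 2 libraries a group), in WT (black circles) and lsm1∆ (orange squares), on the deposited scale and grouped by compartment. The WT points run from -1.02 in TIM9 to 0.17 in ERV1, and the lsm1∆ points from -0.53 in IMP2 to 0.97 in MAS1. The lsm1∆ change is above 0 in 27 of the 37 genes, and in 14 after centring. Among the genes called on either scale, those of TOM70, SAM35, SAM37 and TIM54 fall below 0.

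At the earlier times the calls within a strain depended on the scale. In WT, 13 genes were called higher and 0 lower at 1 h, against 36% and 8.36% of all genes, but 2 and 10 after centring, against 14.6% and 17.6%. At an unadjusted p under 0.05, 14 were higher and 0 lower by limma. At 2 h 4 were called higher and 11 lower, against 31.1% and 11.9%, and 2 and 17 after centring, against 18.3% and 20.5%. The 11 genes lower on both scales included *TOM20*, *TOM22*, *TOM70*, *TOM40*, *TIM9* and *MGE1*. The count of 11 was 7 and 5 without WT replicate 1 or 2 before HU, and 4 without WT replicate 2 at 2 h. Without WT replicate 2 at 1 h, 1 gene was called lower at that time. The WT mean peaked at 1 h in 20 of the 37 genes on the deposited scale, a count not made over all genes. Over all genes the median FPKM of the WT libraries was 30.5 and 28.8 before HU and 35.9 and 34.9 at 1 h. In *lsm1∆*, 9 were called higher and 0 lower at 1 h, against 25% and 9.4%, and 15 and 0 at 2 h, against 38.6% and 10.1%. Unadjusted, 14 were higher and 0 lower at 1 h, and 16 and 1 at 2 h. After centring 3 and 0 were called at 1 h, against 13.9% and 15.5%, and 5 and 3 at 2 h, against 18.9% and 20.9%. At 1 h 4 were called higher without *lsm1∆* replicate 1 of that time. *MIA40* rose at 1 h in WT from its untreated level (0.72 ± 0.06), and with *SAM50* it was called higher at 1 h on both scales in WT. In *lsm1∆* *MIA40*, *SAM50* and *MAS1* were called higher on both scales at 1 h, and at 2 h *TIM13* and *PAM17* joined them.

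The test of the difference, the interaction of strain and HU, asks whether the ratio of *lsm1∆* to WT was larger under HU than before it. At 1 h 0 import genes were called by limma, with 0.287% of all genes higher and 0.215% lower, and 2 and 3 passed an unadjusted p of 0.05. At 2 h 4 were called higher (*TOM70*, *MIA40*, *MGE1* and *MAS1*) and 0 lower, against 1.06% and 0.287% of all genes, and *MIA40* alone was called after centring, against 0.487%. The count of 4 was between 0 and 2 without any 1 of the 8 libraries compared. Unadjusted, 19 were higher and 0 lower at 2 h and 32 and 0 at 4 h. At 4 h 28 were called higher and 0 lower, against 26.9% and 3.55% of all genes. All 11 of the outer membrane were among them, with 8 of 13 of the inner membrane, 5 of 7 of the intermembrane space and 4 of 6 of the matrix. After centring 8 remained higher at 4 h, against 5.19% of all genes. They were *MIA40* (1.03 ± 0.09 on the deposited scale), *MAS1* (1.01 ± 0.12), *TOM7* (0.87 ± 0.15), *TIM10* (0.84 ± 0.13), *MGE1* (0.83 ± 0.10), *TIM13* (0.83 ± 0.15), *MAS2* (0.80 ± 0.12) and *TOM70* (0.75 ± 0.08), with adjusted p-values between 2.68e-04 and 0.00335 (limma, Benjamini-Hochberg). *SSC1*, *HSP60*, *TIM12*, *TIM21* and *IMP2* were not called on either scale, with differences of 0.18 ± 0.10, 0.12 ± 0.13, 0.28 ± 0.30, -0.04 ± 0.10 and 0.05 ± 0.32, all 5 of them below 0 after centring.

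Ratios within a library do not depend on its scaling and show how partner genes moved against each other. *SSC1* to *MGE1* was 2.33 and 2.37 in untreated WT and 4.46 and 4.11 at 4 h of HU. In *lsm1∆* it was 1.41 and 1.65 and 1.75 and 1.78. The WT libraries were above those of *lsm1∆* at every time, and their gap was widest at 4 h. *HSP60* to *HSP10* was 0.46 and 0.40 in untreated WT, 0.63 and 0.55 at 4 h, and 0.36 and 0.45 and 0.39 and 0.38 in *lsm1∆* at these times. The strains overlapped before HU and not at 4 h. *TOM70* to *TOM71* was 3.16 and 3.12 in untreated WT and 2.07 and 2.00 at 4 h, and 3.77 and 3.45 and 2.74 and 2.64 in *lsm1∆*. It was lower at 4 h than before HU in both strains, and higher in *lsm1∆* at both times. *MAS1* to *MAS2* was 0.68 and 0.82 in untreated WT and 0.91 and 0.99 at 4 h, and 0.70 and 0.82 and 1.14 and 1.10 in *lsm1∆*. The strains overlapped before HU, and *lsm1∆* was above WT at 4 h. This ratio is limited by YLR163W-A, which overlaps *MAS1* by 114 bp and whose reads cannot be told apart from those of *MAS1*. The ratios are given as a description, with no test. An exact permutation test of 2 libraries against 2 cannot go below p = 0.33.

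**Figure D4:**
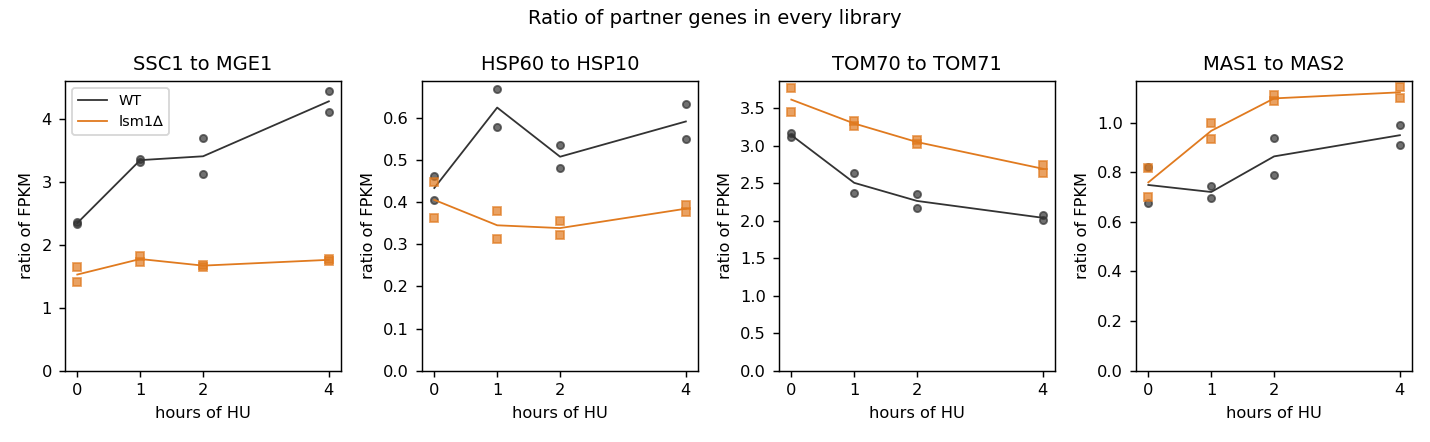
Ratio of the FPKM of partner genes (vertical axis, starting at 0) in each of the 16 libraries against hours of HU, with WT as black circles, lsm1∆ as orange squares and lines through the means of 2 replicates. SSC1 to MGE1 rises to 4.46 and 4.11 in WT at 4 h while the lsm1∆ libraries stay between 1.41 and 1.82.

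Genes with and without the element shown above were compared next. At 4 h the 23 genes with it had a median log2 ratio of *lsm1∆* to WT of 1.09, and all 23 were called higher. The 14 without it had a median of 0.67, with 12 called higher. On the deposited scale, used for these counts, 49.8% of all genes were called higher at 4 h, and 21.9% after centring. *HSP60*, *TIM18* and *TIM23*, which carry the element, were not called after centring. Nor were *IMP1*, *IMP2*, *SAM37*, *TIM21* and *TOM71*, which lack it, and *SSC1*, which also lacks it, was then called lower. After centring the medians were 0.67 and 0.24. In untreated cells they were 0.39 and 0.22 on the deposited scale. Among the other coding genes tested, the median at 4 h was 0.61 in the 818 with the element and 0.36 in the 5059 without it. Within the outer membrane, *TOM5*, *TOM6*, *TOM7*, *TOM20* and *TOM40* carry it and the remaining receptors and the SAM genes do not. *SSC1*, *MAS1* and *MAS2* of the matrix lack it, whereas *MGE1*, *HSP10* and *HSP60* have it. *PAM16* shows the highest ratio among the genes without it. Gene length moves with the element. The 9 genes of up to 350 bp, which are the small Tom and small Tim genes and *HSP10*, all carry it and had a median of 1.31 at 4 h. Among the 28 longer genes the median was 0.88 in the 14 with it and 0.67 in the 14 without it. The other coding genes of up to 350 bp had a median of 0.45, and longer ones 0.38. The part of length in the difference was not tested. In WT after 4 h of HU the median change was -0.47 in the 23 genes with the element, of which 16 were called lower, and -0.20 in the 14 without it, of which 6 were, against 26% of all genes. Among the other coding genes the median change was -0.055 with the element and -0.023 without it.

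**Figure D5:**
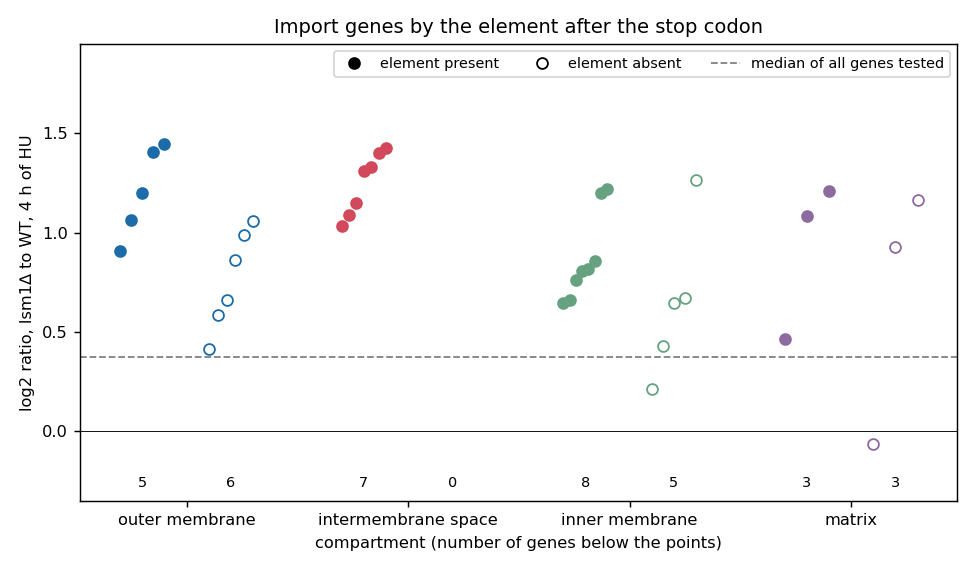
Log2 ratio of lsm1∆ to WT at 4 h of HU (vertical axis, deposited scale) of the 37 import genes by compartment. Filled points are genes with the element within 200 bases after the stop codon and open points genes without it, and the numbers below count them. The dashed line is the median of all genes tested, 0.37. The 23 filled points lie between 0.47 and 1.45 and the 14 open points between -0.06 and 1.26, and after centring those of SAM37 and TIM21 are below 0.

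A second list of 24 genes holds other factors of the pathway, among them assembly factors, matrix J proteins, iron-sulfur chaperones and cytosolic chaperones, and 23 were found and tested. In *lsm1∆* against WT, 7 were called higher and 1 lower before HU, against 22.2% and 6.32% of all genes, and 16 and 0 at 4 h, against 49.8% and 6.29%, with a median of 0.75. After centring, 12 were called higher and 3 lower at 4 h, against 21.9% and 23.5%. The highest ratio before HU was 0.76 in *ZIM17*, which keeps Ssc1 soluble, and the lowest was -0.33 in *CYM1*, a peptidase that degrades cleaved presequences. At 4 h the highest was 1.43 in *JAC1*, a J protein of iron-sulfur cluster assembly. In WT after 4 h of HU, 4 of the 23 were called higher and 7 lower, close to the 22% and 26% of all genes. The largest change upward was 1.56 in *SOM1*, a small factor of the inner membrane peptidase, and the largest fall was -0.75 in *MDJ2*, a J protein of the inner membrane. The peptidase subunit *IMP1* changed by -0.06 ± 0.12 and *IMP2* by -0.57 ± 0.23 in the same cells, and neither was called.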

How the data were processed

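The FPKM values deposited by the authors, 1 table for each of 16 libraries, were used as they stand. Per the labels and the methods of the study, the authors made the libraries with a TruSeq kit from RNA depleted of rRNA, aligned reads to sacCer3 with TopHat2 and estimated abundance with Cufflinks and Cuffdiff. The 46 genes with a failed estimate in any library were left out. Positions and sequences come from RefSeq (R64), in which 6048 identifiers and all 37 import genes were found, the latter at the same position. The lower and upper FPKM of the interval that Cufflinks deposited for each gene gave the relative depth, over 3101 genes of at least 1000 bp.

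One limma fit (eBayes with trend) of log2(FPKM + 1) estimated the 8 condition means, and p-values were adjusted over the 6977 genes in each comparison. Alternatives were centring of the libraries on their medians, a pseudocount of 0.1, no filter (7060 genes), a mean of at least 5 FPKM in every condition (6199 genes), fits of only the compared libraries, a block for replicate number, each library left out, and, after the data were seen, only the genes free of overlap. The members and lists were chosen with earlier results of these data known. Genes given library by library were those with the 3 largest and 3 smallest ratios at 4 h, the 2 largest changes each way in WT, and fixed subunits of each complex. Others were chosen after their values were seen. R 4.3.3, limma 3.58.1, Python 3.11.15, pandas 2.3.3 and numpy 2.4.6 were used, and the code was tested on simulated data.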

Additional observations from a re-analysis of the deposited data

Results flagged for a closer look

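Results are listed here because the change under HU differed between the strains by the interaction test in limma. The ratio of *lsm1∆* to WT was larger than before HU in 4 import genes at 2 h and in 28 at 4 h. Of all genes, 1.06% and 26.9% were called so. After centring 1 and 8 import genes remained, against 0.487% and 5.19% of all genes. At 2 h *MIA40* had a difference of 0.62 on the deposited scale, and was also called after centring. At 4 h the genes called with and without centring were *MIA40* (1.03), *MAS1* (1.01), *TOM7* (0.87), *TIM10* (0.84), *MGE1* (0.83), *TIM13* (0.83), *MAS2* (0.80) and *TOM70* (0.75). *MAS1* and *TIM13* overlap a gene on the other strand. Groups of 2 libraries are too small to single out a library.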

How the results depend on the processing

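Counts of import genes called higher or lower kept within 1.5 times of their value with a pseudocount of 0.1, with no filter, with the stricter filter and without genes that overlap others. Centring the libraries on their medians, the higher counts became 2 (WT at 1 h), 2 (WT at 2 h), 3, 5 and 5 (*lsm1∆* at 1, 2 and 4 h), and 1 and 8 (interaction at 2 and 4 h). The lower counts became 1 and 1 (*lsm1∆* against WT at 2 and 4 h), 10 and 17 (WT at 1 and 2 h) and 3 and 11 (*lsm1∆* at 2 and 4 h). With only the libraries compared, the higher counts were 9 and 7 (*lsm1∆* against WT at 0 and 1 h), 2 (WT at 1 h), 1 (*lsm1∆* at 1 h) and 0 (interaction at 2 h), and the lower counts 0, 0 and 7 (*lsm1∆* against WT at 0 and 1 h, WT at 2 h). These fits have fewer libraries. Leaving out 1 library gave 0 to 2 higher for the interaction at 2 h and 4 to 7 for *lsm1∆* at 1 h, and lower counts of 0 to 1 and 1 to 2 (*lsm1∆* against WT at 0 and 1 h), 0 to 1 and 4 to 8 (WT at 1 and 2 h) and 1 to 3 (*lsm1∆* at 4 h). Centring also turned the sign of ratios. Among import genes called on either scale these were *SAM37* (-0.011) and *TIM21* (-0.21) in *lsm1∆* against WT at 4 h, *TIM21* (-0.24) in WT at 1 h, *TOM40* (-0.25), *SAM35* (-0.033) and *SSC1* (-0.035) in *lsm1∆* at 2 h, and *TOM70* (-0.30), *SAM35* (-0.037), *SAM37* (-0.10) and *TIM54* (-0.25) in *lsm1∆* at 4 h. Genes called on neither scale turned too, and positive import genes went from 36 to 34 (*lsm1∆* against WT at 0 h), 23 to 14 and 15 to 6 (WT at 1 and 2 h) and 33 to 18, 33 to 13 and 27 to 14 (*lsm1∆* at 1, 2 and 4 h). Beyond centring the cause was not tested. With the replicate number as a block, 22, 25, 35 and 35 genes were called higher in *lsm1∆* at 0, 1, 2 and 4 h and 30 for the interaction at 4 h. Deviations of same-numbered libraries correlated between -0.21 and 0.23 over 28 pairs of conditions. In the pairs compared with each other here they lay between -0.08 and 0.23, highest for *lsm1∆* against WT at 0 h. These values cannot settle whether the numbers pair the libraries, because they are low and of both signs. Depth limits *IMP2*, *TIM9* and *TIM12*, whose values rest on the fewest fragments.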
